A study of Mus musculus with 9 samples.

Results

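The genes described here are 10 mouse genes of fatty acid synthesis and desaturation, taken by name from the 24318 genes in the deposited tables: Acly, Acaca, Fasn, Elovl6, Elovl5, Scd1, Scd2, Fads1, Fads2 and Acsl3. All 10 names were found. They were measured in 9 polyA-selected RNA-seq libraries of a cultured mouse cell line, 3 for each of 3 groups. Vehicle cells received no vesicles, CON-BDEV cells received brain-derived extracellular vesicles named as control, and SE-BDEV cells received brain-derived extracellular vesicles whose name refers to status epilepticus (a seizure that does not stop). The library names read CON for Vehicle, EV Saline for CON-BDEV and EV Pilo for SE-BDEV, with no further account of these names. Extracellular vesicles are membrane-bound particles that cells release. Doses, exposure times, the animals that gave the vesicles and whether the 3 libraries of a group were separate cultures are not given in the labels, so the p-values reflect how far these libraries differed, which may be technical variation.

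The labels do not settle which line this was. The series text names BV2, a mouse microglial line, and the sample labels name N2a, a mouse neuroblastoma line. Of 19 microglia and macrophage markers, 17 had a mean of at least 1 FPKM (sequenced fragments per unit of transcript length and of library size), and P2ry12 and Cx3cr1 did not. The means of these 17 ran from 1.08 FPKM (C1qa) to 1740 FPKM (Ctsd). Of 21 neuroblastoma and neuron markers, 4 reached that level: Uchl1, Nefh, Ina and Elavl4, with means of 90.2, 77.6, 9.72 and 3.92 FPKM. The median of the means was 59.2 FPKM for the microglia and macrophage list and 0.00255 FPKM for the neuroblastoma and neuron list. Th, Dbh, Mycn, Hand2, Chga and Stmn2 were listed at 0 in all 9 libraries. The libraries held an estimated 29000000 to 33547000 fragments each, which puts 58.0 to 67.1 fragments behind 1 FPKM in a transcript of 2 kb.

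Fatty acid synthesis turns citrate into long-chain fatty acids in the cytosol. ATP citrate lyase releases acetyl-CoA, acetyl-CoA carboxylase turns it into malonyl-CoA, and fatty acid synthase joins these units into palmitate. Elongases then lengthen the chain, desaturases place double bonds in it, and acyl-CoA synthetases attach the coenzyme A that lets a fatty acid enter phospholipids, triglycerides and cholesteryl esters. Many genes of the pathway are targets of SREBP-1, a membrane-bound transcription factor that is released when sterols or unsaturated fatty acids are scarce, and of the liver X receptors. In brain, Scd2 is the main stearoyl-CoA desaturase gene and Scd1 that of liver and fat.

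SREBP-1 works with general factors that bind CCAAT boxes and GC boxes, so the bases before the start sites of Fasn, which builds the chain, and Acly, which supplies its acetyl-CoA, are shown with both motifs in capitals. Each run is the 250 bases upstream of the start, 5′ to 3′ on the strand of the gene, from RefSeq promoter annotation on GRCm38.p6. The Fasn run lies at chr11:120824548-120824797 and the Acly run at chr11:100528001-100528250, both on the minus strand.
Fasn: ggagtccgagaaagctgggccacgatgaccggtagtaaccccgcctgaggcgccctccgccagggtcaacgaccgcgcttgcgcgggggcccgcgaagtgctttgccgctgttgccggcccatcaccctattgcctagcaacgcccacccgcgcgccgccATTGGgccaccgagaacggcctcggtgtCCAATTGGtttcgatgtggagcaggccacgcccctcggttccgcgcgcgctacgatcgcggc
Acly: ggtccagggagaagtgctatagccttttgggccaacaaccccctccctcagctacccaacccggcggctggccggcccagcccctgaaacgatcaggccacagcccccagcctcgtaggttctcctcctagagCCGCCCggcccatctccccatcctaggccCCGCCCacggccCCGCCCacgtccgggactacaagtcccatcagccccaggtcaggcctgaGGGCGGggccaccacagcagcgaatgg
The Fasn run holds 3 CCAAT boxes (CCAAT or its reverse complement), which begin 90, 62 and 59 bases before the start, the last 2 overlapping. The Acly run holds 4 GC boxes (GGGCGG or its reverse complement), which begin 117, 88, 76 and 27 bases before the start. Promoters of 7 of the 10 genes were matched by symbol; Scd1, Scd2 and Fads1 were not. A CCAAT box stood in 3 of these 7 (Acsl3, Elovl5 and Fasn) against 33.8% of 32851 promoters searched, and a GC box in 3 (Acsl3, Acly and Fads2) against 32.7%. An E-box, CACGTG, stood in 1 (Elovl5) against 6.02%, and the sterol regulatory element searched, TCACNCCAC, in 0 against 1.053%. Both strands were searched, and a match describes letters in this window only. Annotated starts need not be those used in these cells, and the Acaca window may lie inside the gene, which was not tested.

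The desaturase genes Scd1 and Scd2 can share reads. Their coding sequences in GENCODE M21 were 90.3% identical over 1065 aligned bases, with 147 bases identical in a row at the longest. The lines below show coding bases 634 to 723 of Scd2 and 625 to 714 of Scd1, with the 1 base that differs in capitals. They run from the last bases of the longest identical stretch past the base that ends it, because a read that lies within the identical stretch names neither gene and a read that covers the capital does tell them apart.
Scd2: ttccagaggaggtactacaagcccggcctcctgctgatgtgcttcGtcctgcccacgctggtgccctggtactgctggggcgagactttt
Scd1: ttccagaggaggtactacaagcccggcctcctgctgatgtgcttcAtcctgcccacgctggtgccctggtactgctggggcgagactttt
Of the 1025 windows of 50 bases in the Scd2 coding sequence, 145 also occurred in Scd1, 136 in Scd3 and 61 in Scd4. The values listed for Scd1, Scd3 and Scd4 stood far below that of Scd2, as given with the desaturases. Fads1 and Fads2 were 67.8% identical over 1325 aligned bases and shared no window of 25 bases.

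Exposure to either vesicle preparation went with lower levels of the pathway. All 8 genes whose mean reached 1 FPKM lay lower in every CON-BDEV library than in every Vehicle library, and likewise in SE-BDEV; over all genes tested, 12.7% and 16.3% did so. In limma's test with Benjamini-Hochberg adjustment over 10535 genes, 7 of the 8 fell in CON-BDEV, where 1.86% of all genes fell and 3.81% rose. In SE-BDEV 6 of the 8 fell, where 5.14% of all genes fell and 6.76% rose. None of the 8 rose. The median log2 fold change of the 8 was -0.32 in CON-BDEV and -0.29 in SE-BDEV, where log2 fold changes are differences of log2(FPKM + 1), and the median of all genes tested was 0.01 and -0.0008. Both contrasts use the same 3 Vehicle libraries. In bulk RNA, fewer cells with a transcript and less of it per cell cannot be told apart.

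**Figure D1:**
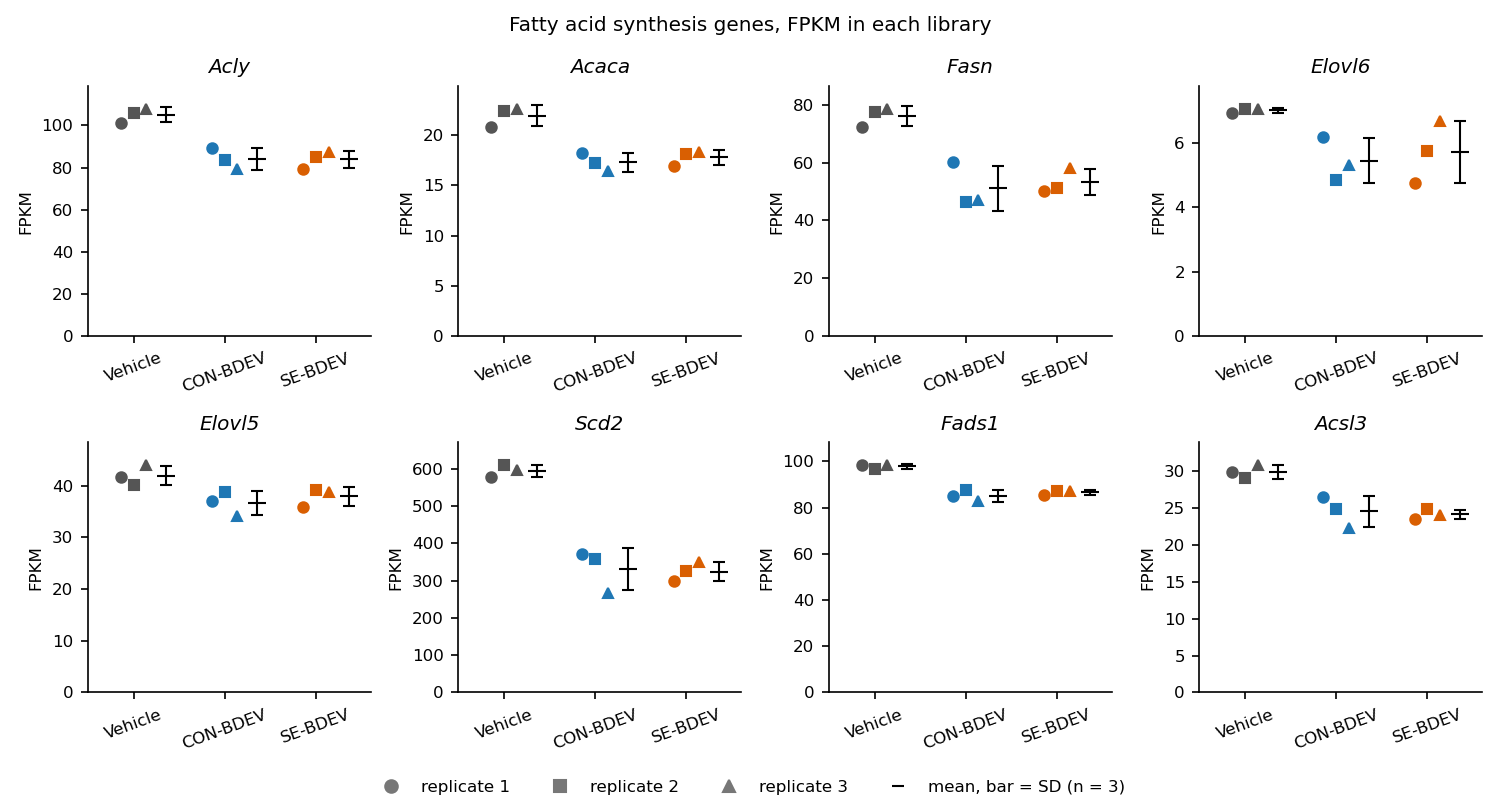
FPKM of the 8 genes whose mean reached 1 FPKM (y axis from 0 in each panel) in the 3 libraries of each group, with the mean and SD beside them and the replicate number as the symbol. No vesicle library reaches the Vehicle range in any panel, and the gap is widest for Scd2, at 578 to 611 FPKM in Vehicle and 266 to 371 in the vesicle groups.

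Acly, ATP citrate lyase (chr11:100337666-100389314, mm9, a locus listed also for Mir7116), supplies the acetyl-CoA. Its levels were 101, 106 and 108 FPKM in Vehicle, 89.3, 83.7 and 79.2 in CON-BDEV, and 79.2, 84.8 and 87.5 in SE-BDEV. The vesicle groups overlapped each other and lay below Vehicle, at 80.0% and 79.8% of its mean. The log2 fold change was -0.32 with a standard error of 0.05 in CON-BDEV (limma adjusted p = 0.0120) and also -0.32, with a standard error of 0.05, in SE-BDEV (limma adjusted p = 0.00285).

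Acaca, acetyl-CoA carboxylase 1 (chr11:84008940-84215153, mm9), makes malonyl-CoA, the rate-limiting step. It stood at 20.8, 22.4 and 22.6 FPKM in Vehicle, 18.3, 17.2 and 16.4 in CON-BDEV, and 16.9, 18.1 and 18.3 in SE-BDEV. Its log2 fold change was -0.33 ± 0.06 (standard error) in CON-BDEV (limma adjusted p = 0.0147) and -0.29 ± 0.05 in SE-BDEV (limma adjusted p = 0.00758). All vesicle values were below Vehicle, and the vesicle groups overlapped. The ratio of Acaca to Acly was 0.205 to 0.212 in Vehicle, 0.205 to 0.207 in CON-BDEV and 0.210 to 0.214 in SE-BDEV, given with no test. Acacb, the carboxylase linked to the control of fatty acid oxidation, was listed at a mean of 0.151 FPKM and was not tested.

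Fasn, fatty acid synthase (chr11:120667272-120685861, mm9), builds palmitate. Its levels were 72.1, 77.4 and 78.6 FPKM in Vehicle, 60.1, 46.4 and 46.9 in CON-BDEV, and 50.3, 51.1 and 58.3 in SE-BDEV. Every vesicle library lay below Vehicle, and CON-BDEV 1 and SE-BDEV 3 were the highest of their groups. The log2 fold change was -0.57 ± 0.09 (standard error) in CON-BDEV (limma adjusted p = 0.0117) and -0.51 ± 0.06 in SE-BDEV (limma adjusted p = 0.001005). Fasn was also lower relative to the genes that supply its substrates. The ratio of Fasn to Acaca was 3.45 to 3.47 in Vehicle, 2.69 to 3.29 in CON-BDEV and 2.83 to 3.18 in SE-BDEV, and the ratio of Fasn to Acly had means of 0.723, 0.607 and 0.635, with no overlap between Vehicle and either vesicle group. These ratios are given as values, with no test.

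The elongases come next in the pathway. Elovl6 (chr3:129235304-129341411, mm9) lengthens palmitate to stearate, and its levels were 6.91, 7.05 and 7.04 FPKM in Vehicle, 6.19, 4.84 and 5.31 in CON-BDEV, and 4.74, 5.75 and 6.66 in SE-BDEV. The SD was 0.0782 FPKM in Vehicle, 0.686 FPKM in CON-BDEV and 0.961 FPKM in SE-BDEV (n = 3 each), and no vesicle library reached the Vehicle range. Elovl6 fell in CON-BDEV by 0.32 ± 0.08 on the log2 scale, just inside the threshold (limma adjusted p = 0.0497). In SE-BDEV its log2 fold change was -0.26 ± 0.09 and did not pass (limma adjusted p = 0.101).

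Elovl5 (chr9:77765172-77832326, mm9) lengthens polyunsaturated fatty acids and had 41.7, 40.2 and 44.0 FPKM in Vehicle, 37.1, 38.7 and 34.1 in CON-BDEV, and 35.8, 39.2 and 38.8 in SE-BDEV. All 6 vesicle values were below the lowest Vehicle value, but by 0.973 FPKM at the closest. Its log2 fold changes, -0.19 ± 0.06 and -0.14 ± 0.05, did not pass in either comparison (limma adjusted p = 0.0866 and 0.101).

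Scd2, a delta-9 desaturase that makes oleate and palmitoleate (chr19:44368166-44381352, mm9, a locus listed also for Mir5114), was the most abundant of the genes per length and had the largest fold changes of the 8 genes tested. Its levels were 578, 611 and 597 FPKM in Vehicle, 371, 359 and 266 in CON-BDEV, and 298, 326 and 349 in SE-BDEV. The lowest Vehicle library exceeded the highest vesicle library by 207 FPKM. The group means were 55.8% of Vehicle in CON-BDEV and 54.5% in SE-BDEV. The log2 fold change was -0.86 ± 0.11 in CON-BDEV (limma adjusted p = 0.00548) and -0.88 ± 0.05 in SE-BDEV (limma adjusted p = 1.71e-05). By level, Scd2 ranked 152 to 160 among all genes in the Vehicle libraries and 236 to 339 in the vesicle libraries.

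Scd1, the neighbouring delta-9 desaturase gene (chr19:44468940-44482199, mm9), was close to absent. After scaling by each library's estimated relative depth, its FPKM values were whole multiples of the smallest one, within a tolerance of 0.05, and correspond to 7, 1 and 3 fragments in Vehicle, 1, 1 and 0 in CON-BDEV, and 0, 1 and 0 in SE-BDEV. It did not reach 1 FPKM in any library and was not tested. The mean level of Scd3 was 0.0750 FPKM and that of Scd4 0.0871 FPKM, beside 266 FPKM at the lowest for Scd2.

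Fads1, the delta-5 desaturase of polyunsaturated fatty acids (chr19:10257378-10271362, mm9, a locus listed also for Mir6993), had small differences and little spread. It stood at 98.4, 96.7 and 98.2 FPKM in Vehicle, 85.0, 87.8 and 82.7 in CON-BDEV, and 85.3, 87.1 and 87.4 in SE-BDEV. Its log2 fold change was -0.20 ± 0.04 in CON-BDEV (limma adjusted p = 0.0248) and -0.17 ± 0.03 in SE-BDEV (limma adjusted p = 0.0110). Relative to Scd2, its level was higher with vesicles, as the ratio of Fads1 to Scd2 was 0.158 to 0.170 in Vehicle, 0.229 to 0.311 in CON-BDEV and 0.250 to 0.286 in SE-BDEV. Fads2, the delta-6 desaturase gene (chr19:10138654-10175993, mm9), was listed at 0 in all 9 libraries, as was Hmgcs1, a gene that many cells use, so no level is given for it.

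Acsl3, a long-chain acyl-CoA synthetase found on lipid droplets and the endoplasmic reticulum (chr1:78654400-78704318, mm9), had 29.8, 29.0 and 30.8 FPKM in Vehicle, 26.4, 24.8 and 22.3 in CON-BDEV, and 23.5, 24.8 and 23.998 in SE-BDEV. Its log2 fold change was -0.28 ± 0.06 in CON-BDEV (limma adjusted p = 0.0372) and -0.30 ± 0.04 in SE-BDEV (limma adjusted p = 0.00266). Utp14b has the same listed locus, and it had 8.52, 9.04 and 8.95 FPKM in Vehicle, 6.80, 6.17 and 6.18 in CON-BDEV and 6.37, 6.62 and 7.47 in SE-BDEV. How the shared locus affects either value was not tested.

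**Figure D2:**
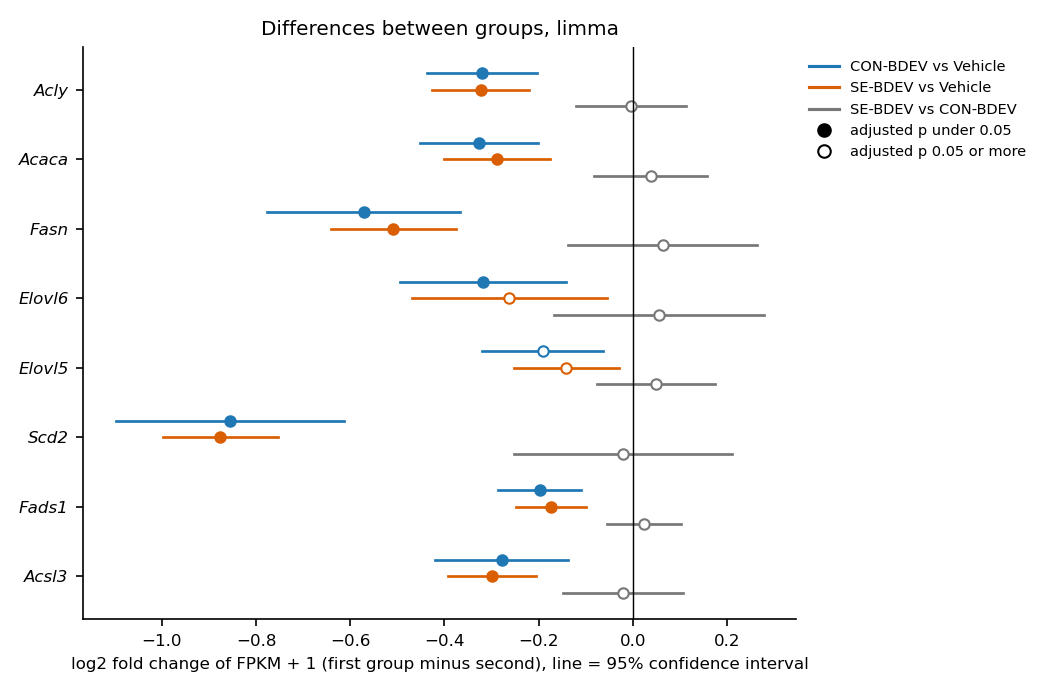
Log2 fold change of FPKM + 1 (x axis, with the 95% confidence interval as a line) for the 8 genes in the 3 comparisons; filled points have a limma adjusted p under 0.05. Scd2 lies at -0.86 and -0.88 against Vehicle, while all 8 intervals of SE-BDEV against CON-BDEV span 0.

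The order of the genes by level changed at 1 place. In Vehicle it ran Scd2, Acly, Fads1, Fasn, Elovl5, Acsl3, Acaca, Elovl6, Scd1, and the ranges of neighbours did not overlap. In both vesicle groups Fads1 and Acly changed places and their ranges overlapped. Summed over the genes, the level was 949 to 990 FPKM in Vehicle, 553 to 693 in CON-BDEV and 594 to 670 in SE-BDEV. Scd2 made up 60.5% to 61.7% of that sum in Vehicle, 48.1% to 54.2% in CON-BDEV and 50.2% to 52.1% in SE-BDEV. Without Scd2 the sums were 371 to 389 FPKM, 287 to 322 FPKM and 296 to 321 FPKM, so the other genes were lower in both vesicle groups as well.

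The 2 preparations were next set against each other. Status epilepticus and other differences between the preparations cannot be told apart in this contrast, as the labels do not describe the animals that gave the vesicles. None of the 8 genes differed between SE-BDEV and CON-BDEV in limma's fit of all 9 libraries, where 0% of 10532 genes fell and 0% rose; at an unadjusted p under 0.05 there were 0 of the 8 and 509 of all genes. The 2 groups overlapped in each of the 8 genes, as in most of the 10532 genes, of which 547 lay lower and 289 higher in SE-BDEV without overlap. The log2 fold change of SE-BDEV over CON-BDEV was -0.02 for Scd2, with a 95% confidence interval of -0.25 to 0.21. For Fasn it was 0.06 (-0.14 to 0.26), for Elovl6 0.06 (-0.17 to 0.28) and for Fads1 0.02 (-0.05 to 0.10). The intervals of Acly (-0.12 to 0.11), Acaca (-0.08 to 0.16), Elovl5 (-0.08 to 0.18) and Acsl3 (-0.15 to 0.11) also held 0. These intervals, not adjusted for the number of genes, give the differences that the 9 libraries allow and are not limits of detection. With 3 libraries a group, larger differences could also have gone uncalled after adjustment over all genes.

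Libraries of 1 group differed in a shared direction across the genes. SE-BDEV 1 was the lowest of its group in 8 of the 8 genes, against 32.2% of all genes tested, and CON-BDEV 3 was the lowest of its group in 6 of the 8, against 25.9%. As a median over the 8 genes, CON-BDEV 1, 2 and 3 stood at 85.9%, 79.1% and 75.1% of the Vehicle mean, and SE-BDEV 1, 2 and 3 at 76.3%, 82.3% and 83.4%. For Scd2 these were 62.3%, 60.3% and 44.7%, and 50.1%, 54.8% and 58.6%. The same 2 libraries were the lowest of their groups in 20 of 20 (SE-BDEV 1) and 19 of 20 (CON-BDEV 3) sterol synthesis genes.

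**Figure D3:**
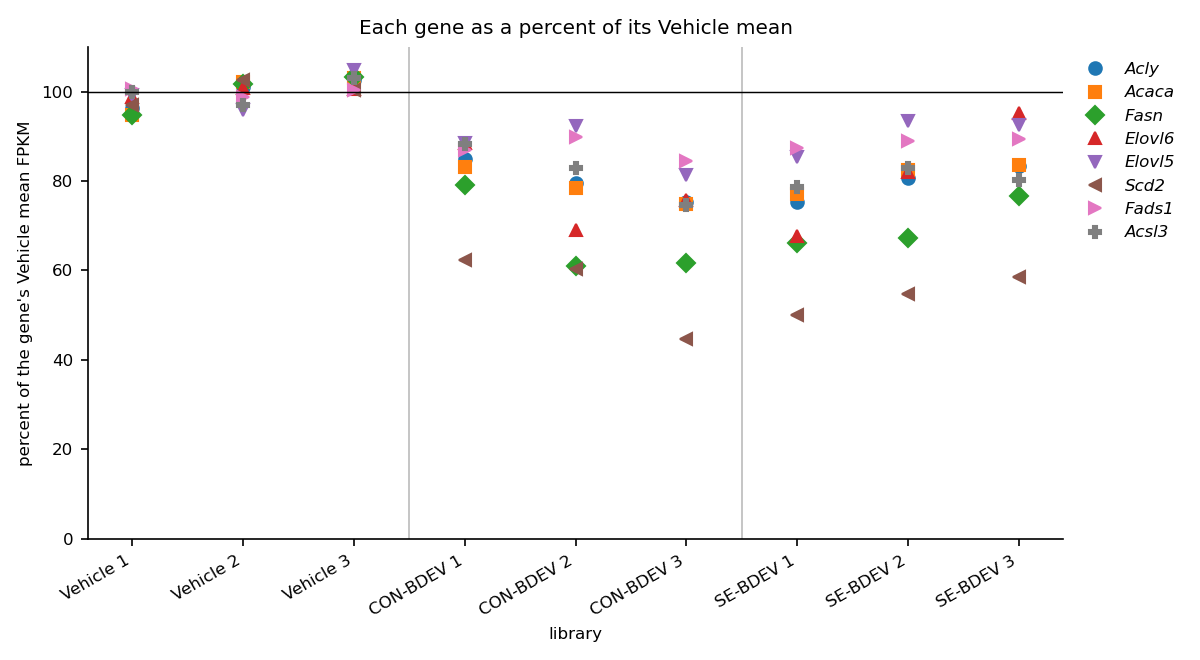
Level of each of the 8 genes as a percent of its own Vehicle mean (y axis from 0) in each library. Scd2 is the lowest and Fasn the next lowest in all 6 vesicle libraries, and Fads1 and Elovl5 stay between 81.3% and 93.5% there.

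The number of calls in CON-BDEV depended on which libraries were kept. Leaving out 1 library at a time left 1 of the 8 genes called in CON-BDEV without Vehicle 2 or without Vehicle 3 (Scd2 each time), 2 without CON-BDEV 3 (Scd2 and Acly), 4 without Vehicle 1 (Scd2, Acly, Acaca and Fasn) and 7 without CON-BDEV 1 or CON-BDEV 2. The highest limma adjusted p of Scd2 among these was 0.0372, and with no filter on low values 0 of the 8 passed (limma adjusted p = 0.0523 for Scd2), where 0.222% of all genes fell. Over all genes, 18 fell without Vehicle 2, 29 without Vehicle 3, 36 without CON-BDEV 3 and 29 without Vehicle 1, against 196 with all 6 libraries. Without CON-BDEV 1 and without CON-BDEV 2, 64.4% and 65.0% of the calls over all genes were higher, against 67.2% with all 6 libraries. The total of calls over all genes moved as well, as given with the processing, so the counts of the 8 do not share 1 background. In SE-BDEV, 5 to 7 were called: Fads1 was lost without Vehicle 1 (limma adjusted p = 0.0567) and Elovl6 was gained without SE-BDEV 3 (limma adjusted p = 0.0156). With all 6 libraries, 541 of 10535 genes (5.14%) fell in SE-BDEV. The total of calls over all genes moved between these SE-BDEV settings too, as given with the processing, so their counts do not share 1 background either. Of those calls, 57.1% to 62.7% were higher, against 56.8% with all 6 libraries. The log2 fold changes of all 8 genes stayed below 0 in each of 16 settings of either comparison.

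The library names carry a number, 1 or 2, whose meaning the labels do not give. It was not balanced: Vehicle had 2 libraries of number 1 and 1 of number 2, and each vesicle group had 1 of number 1 and 2 of number 2. Within number 1, CON-BDEV lay below Vehicle in 8 of the 8 genes, by log2 differences of -0.68 to -0.14, and within number 2 by -0.95 to -0.20. SE-BDEV lay below Vehicle in 8 of the 8 by -0.99 to -0.19 within number 1 and by -0.82 to -0.16 within number 2. Over all genes the median difference within numbers 1 and 2 was 0.0049 and 0.0051 in CON-BDEV, and 0.0049 and -0.0063 in SE-BDEV. The share of all genes below Vehicle within a number was not counted. In the main fits, 5055 (CON-BDEV) and 5293 (SE-BDEV) of 10535 genes had log2 fold changes below 0. Each difference within a number rests on 1 or 2 libraries a side, with no test. With the number as a term in the fit, 4 of the 8 genes fell in CON-BDEV, where 0.788% of all genes did, and 7 in SE-BDEV, where 3.95% did.

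In the authors' deposited table for CON-BDEV, Cuffdiff's q-value was under 0.05 for Acly, Acaca, Fasn, Elovl6 and Scd2, all lower, as were 1.56% of all genes it lists as tested. In the authors' deposited table for SE-BDEV it was so for the same 5 and Acsl3, all lower, as were 2.01% of all genes it lists as tested. Fads1, which passed limma's threshold in both comparisons, had a q-value of 0.232 and 0.270 in the authors' deposited tables. Elovl6, which did not pass limma's threshold in SE-BDEV, had a q-value of 0.0330 in the authors' deposited table.

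Of the transcription factors and sensors that control the pathway, Srebf1 (which encodes SREBP-1), Srebf2 (SREBP-2) and Insig1, which holds the SREBP complex in the endoplasmic reticulum and is itself an SREBP target, fell with both preparations. Insig1 had 78.7, 79.3 and 77.2 FPKM in Vehicle, 44.3, 49.99 and 35.5 in CON-BDEV, and 29.4, 44.6 and 46.9 in SE-BDEV (log2 fold change -0.86 ± 0.10, limma adjusted p = 0.00426, and -0.97 ± 0.14, limma adjusted p = 0.00320). Srebf1 had 51.5, 51.1 and 49.7 FPKM in Vehicle, 35.3, 35.7 and 27.4 in CON-BDEV, and 31.7, 32.2 and 31.4 in SE-BDEV (-0.62 ± 0.09, limma adjusted p = 0.00864, and -0.66 ± 0.04, limma adjusted p = 6.76e-06). The groups did not overlap with Vehicle for either gene.

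Srebf2 had 62.9 to 66.5 FPKM in Vehicle, 46.2 to 54.9 in CON-BDEV and 48.0 to 55.6 in SE-BDEV, with log2 fold changes of -0.32 and -0.34. Nr1h3, the gene of liver X receptor alpha, fell in SE-BDEV by 0.22 on the log2 scale (limma adjusted p = 0.0332), and had the same log2 fold change of -0.22 in CON-BDEV without passing (limma adjusted p = 0.0778). Scap, Insig2, Nr1h2 and Mlx were not called in either comparison, with log2 fold changes from -0.05 to 0.08. Mlxipl, which encodes the sugar-responsive factor ChREBP, was listed at 0.0228 FPKM as a mean in Vehicle and was not tested. In all, 3 of 14 genes tested on this list fell in CON-BDEV and 4 of 14 in SE-BDEV, and 0 rose.

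Other genes of fatty acid synthesis did not move as a block. Of 18 tested, 2 fell and 2 rose in CON-BDEV, with a median log2 fold change of 0.08, and 2 fell and 5 rose in SE-BDEV, with a median of 0.10. Those that fell in both were Mid1ip1, an activator of acetyl-CoA carboxylase, by 0.37 and 0.50 on the log2 scale, and Slc25a1, the carrier that exports citrate from mitochondria, by 0.30 and 0.23. Me1, malic enzyme, which makes NADPH that chain synthesis consumes, rose from 14.8, 14.8 and 16.8 FPKM in Vehicle to 28.0, 23.1 and 27.7 in CON-BDEV and 25.3, 26.4 and 29.3 in SE-BDEV (log2 fold change 0.73 and 0.77). Hacd2, a dehydratase of the elongation cycle, rose by 0.23 in both on the log2 scale. Hacd1, Elovl1 and Elovl4, named after their values were seen, rose in SE-BDEV by 0.15, 0.16 and 0.19.

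Among other genes of fatty acid activation and binding, 1 of 15 tested fell and 1 rose in CON-BDEV, and 5 of 14 fell and 1 rose in SE-BDEV. Fabp4, a fatty acid binding protein of macrophages and fat cells, fell by 0.51 and 0.55 on the log2 scale, and Acot7, an acyl-CoA thioesterase, rose by 0.26 and 0.23. Acsl4, which prefers arachidonate and belongs to the same synthetase family as Acsl3, fell in SE-BDEV by 0.25 (limma adjusted p = 0.00663) and had a log2 fold change of -0.21 in CON-BDEV (limma adjusted p = 0.0595). Fabp5 fell in SE-BDEV by 0.23, and Dbi and Acsf3, named after their values were seen, by 0.23 and 0.20.

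Sterol synthesis genes, targets of SREBP-2, were also called in 1 direction. Of 20 tested, 11 fell in CON-BDEV and 14 in SE-BDEV, 0 rose, and the median log2 fold change was -0.39 and -0.46. Fdps, Lss and Pmvk fell by 0.52, 0.54 and 0.48 on the log2 scale in CON-BDEV, and Fdps, Pmvk and Acat2 by 0.61, 0.61 and 0.57 in SE-BDEV. Genes that use fatty acyl-CoA for glycerolipids divided: of 18 tested, Lpin1, Lpcat1 and Lpcat3 fell and Lpcat2 rose in CON-BDEV, and in SE-BDEV Dgat2, named after its value was seen, fell with the same 3 while Lpcat2 rose. No test compared these lists with each other.

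Genes of fatty acid use, known as PPAR targets, moved the other way in part. Of 12 tested, 3 rose and 8 were not called in CON-BDEV, and 5 rose and 6 were not called in SE-BDEV. Cd36, a fatty acid transporter, rose from 4.77, 5.37 and 4.99 FPKM in Vehicle to 14.04, 10.02 and 16.8 in CON-BDEV and 13.9, 14.5 and 15.6 in SE-BDEV (log2 fold change 1.25 and 1.37). Acadl and Acadvl, dehydrogenases of fatty acid oxidation, rose by 0.33 and 0.33 in CON-BDEV and by 0.31 and 0.25 in SE-BDEV. Cpt1a, which admits fatty acids to mitochondria, rose by 0.56 in SE-BDEV. In CON-BDEV the log2 fold change of Cpt1a was 0.49 without passing (limma adjusted p = 0.0602), with no overlap with Vehicle. Cpt2 fell by 0.27 in CON-BDEV and 0.24 in SE-BDEV and was the 1 of 12 genes tested that fell in either group. Ppara was listed at 0 in all 9 libraries.

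**Figure D4:**
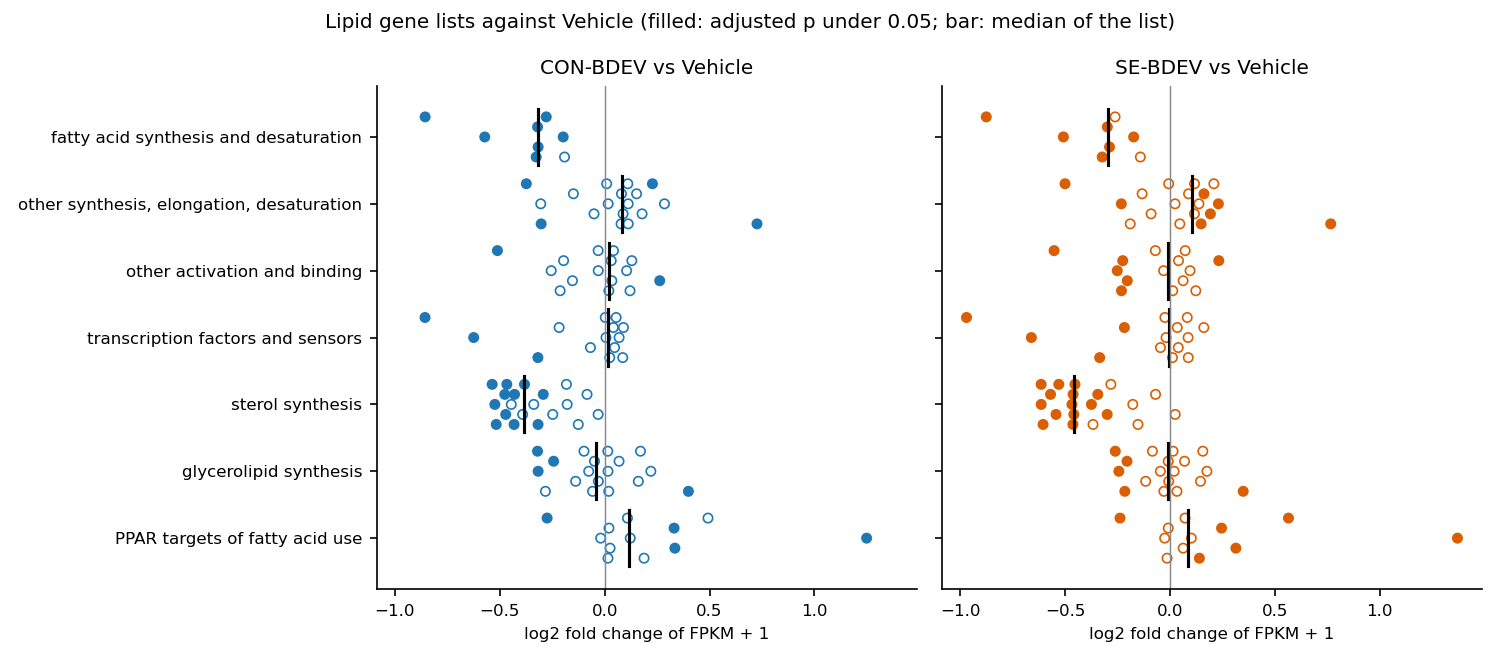
Log2 fold change of FPKM + 1 against Vehicle (x axis) for each tested gene of 7 lists in CON-BDEV and SE-BDEV; filled points have a limma adjusted p under 0.05 and bars are list medians. All 8 points of the fatty acid synthesis list lie left of 0, as do 20 (CON-BDEV) and 19 (SE-BDEV) of 20 sterol synthesis genes, while the other 5 lists lie on both sides.

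The genes whose level followed the 8 most closely over the 9 libraries were ranked by Pearson correlation with the mean of the 8 z-scores. Among 9969 genes compared, those with the highest values included Lss (lanosterol synthase, 0.988), Tuba1a (0.983), Arhgef10 (0.979), Pik3r5 (0.978), Smad3 (0.976), Mob3a (0.975) and Rraga (0.974), and 152 genes reached 0.9. These libraries form 3 groups, so a gene that is clearly lower with vesicles than in Vehicle tends to score high. Over the 6 vesicle libraries alone, r was 0.947 for Lss, 0.929 for Mob3a and 0.905 for Tuba1a, and 0.628 for Srebf1, 0.832 for Srebf2 and 0.740 for Insig1. Among the other transcription factors and sensors, r over these 6 was 0.857 for Nr1h3, 0.727 for Prkaa1 and 0.716 for Mlx. The rest of that list had values from -0.571 to 0.364. These are descriptions with no test.

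**Figure D5:**
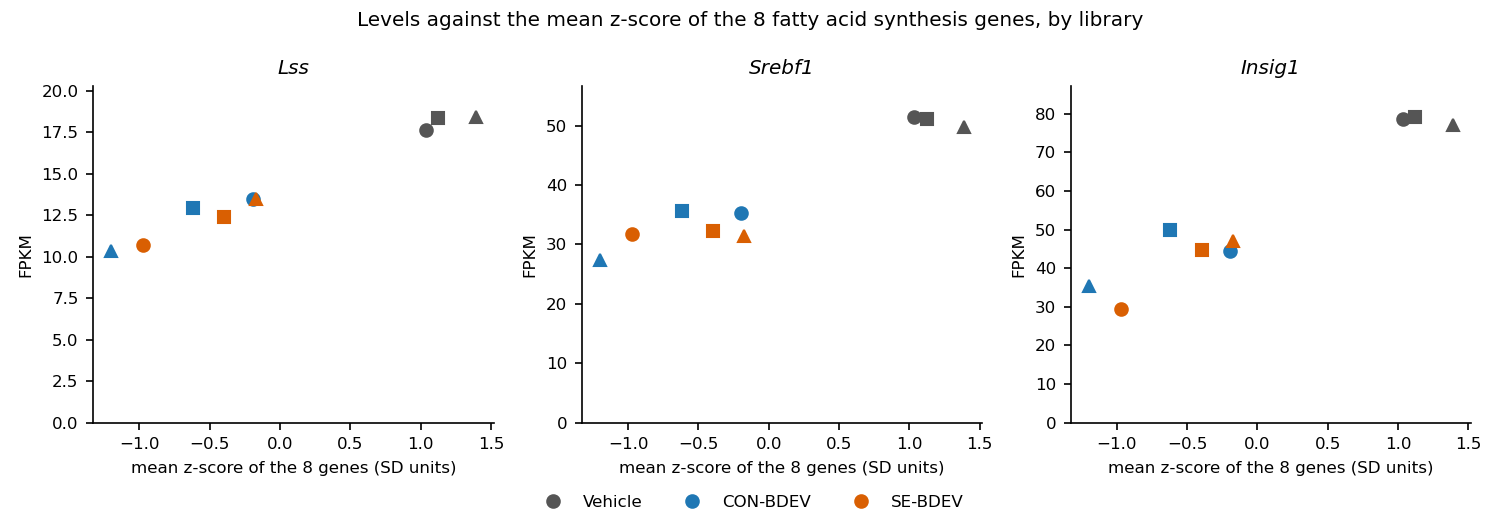
FPKM of Lss, Srebf1 and Insig1 (y axes from 0) against the mean z-score of the 8 genes (x axis) in the 9 libraries, with the replicate number as the symbol (circle 1, square 2, triangle 3). The Vehicle libraries stand apart at z-scores of 1.04 to 1.39, and among the vesicle libraries CON-BDEV 3 (-1.20) and SE-BDEV 1 (-0.97) lie lowest.

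Markers of other cell types moved in part with the same groups. Microglia and macrophage markers summed to 4363 to 4485 FPKM in Vehicle, 4612 to 5074 in CON-BDEV and 4586 to 5159 in SE-BDEV, while the fatty acid synthesis genes were lower. In that list 6 of 16 tested rose and Cd14 fell in CON-BDEV, 7 of 17 rose and Cd14 fell in SE-BDEV, and 9 in each comparison passed in neither direction. Ctsd (1556 to 1589 FPKM in Vehicle, 1687 to 1947 in CON-BDEV and 1696 to 1899.8 in SE-BDEV) and Lyz2 (547 to 616, 650.1 to 756 and 556 to 779.8 FPKM) make up much of the sum. Ctsd rose in both comparisons and Lyz2 in CON-BDEV, but Lyz2 did not pass in SE-BDEV (limma adjusted p = 0.248). Cd14 and Lyz2 are named after their values were seen. Astrocyte markers, of which Aldoc alone of 8 reached 1 FPKM and Aqp4, Slc1a3 and Gja1 were listed at 0, summed to 44.9 to 46.0 FPKM in Vehicle, 37.5 to 41.1 in CON-BDEV and 36.4 to 40.3 in SE-BDEV. Myelin markers, of which Cnp and Mbp of 10 reached 1 FPKM and Mog and Mag were listed at 0, summed to 14.2 to 14.5 FPKM, 10.9 to 13.6 FPKM and 12.2 to 12.7 FPKM. Cnp had means of 11.9, 9.92 and 9.76 FPKM in Vehicle, CON-BDEV and SE-BDEV, and passed limma's threshold in SE-BDEV (adjusted p = 0.00620) but not in CON-BDEV (adjusted p = 0.0838). Mbp had means of 1.23, 1.44 and 1.55 FPKM and passed in neither comparison. Neuron markers summed to 166 to 174 FPKM, 183 to 195 FPKM and 180 to 189 FPKM. Uchl1 rose in both comparisons, with means of 73.7, 100.02 and 97.0 FPKM. Nefh had means of 82.1, 76.3 and 74.3 FPKM and passed in neither, and 2 of the 4 tested had log2 fold changes below 0 in each comparison. Fabp4 was the 1 of 7 adipocyte and hepatocyte markers above 1 FPKM. Their part in the levels of the fatty acid synthesis genes was not tested.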

How the data were processed

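The FPKM tables deposited by the authors hold 1 value per gene and library for 24318 genes, with a table for each vesicle group beside Vehicle. The authors' Cuffdiff tables give, per the file headers, a log2 fold change, a p-value and a q-value deposited by the authors for each gene. The submitters' processing notes name TopHat2, Cuffdiff and mm9; versions and annotation are not given in the sources used here. Per the labels' protocols, polyA RNA went into strand-specific libraries. The 3 Vehicle libraries stand in both tables and differ by constant factors of 1.00012 to 1.00078, so the tables were joined by dividing the SE-BDEV libraries by 1.00044.

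Values were analysed as log2(FPKM + 1), because FPKM values are not counts, with R 4.3.3 and limma 3.58.1 (lmFit, eBayes with trend, 2-sided). Genes were kept if their mean in the libraries of a fit reached 1 FPKM, which took in 8 of the 10 genes. Ferritin genes whose estimate the authors' status marks as failed were left out. Each vesicle group was fitted with Vehicle in its own table, and SE-BDEV with CON-BDEV in a fit of the 9 joined libraries. The Benjamini-Hochberg adjustment ran over all genes of a fit, with a threshold of 0.05. An exact permutation test of 3 libraries against 3 cannot go below p = 0.1. Errors after ± are standard errors. The fits were tested on simulated data. Depth was estimated from the steps between the lowest FPKM values, so fragments are estimates. Coding sequences were aligned with Biopython 1.88. The genes and all lists were chosen with earlier results of these data known. Of each list, up to 4 genes past the threshold with the largest changes were named, or up to 2 with the highest mean where none passed; others are said to have been named after their values were seen. A few genes that this rule covers are not reported here. Alternatives tried were the pseudocount, the filter, 2 scalings, a replicate block, the library-name number, the libraries in the fit, each library left out and the authors' q-value.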

Additional observations from a re-analysis of the deposited data

How the results depend on the processing

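For CON-BDEV, with 7 of the 8 fatty acid synthesis genes and 597 of all genes called in the main analysis, no filter on low values left 0 and 112 (the 8 genes then had limma adjusted p from 0.0523 to 0.156, and 15334 genes were tested), the library-name number as a term left 4 and 275, and leaving out 1 library gave 1 to 7 and 84 to 1067. With a replicate block, 4 of the 8 and 364 genes were called in CON-BDEV, 6 of the 8 and 1060 genes in SE-BDEV. The replicate numbers showed no sign of pairing: deviations from the group means correlated by -0.0397 on average between same-numbered libraries, and 3 of 9 correlated best with their own number. For SE-BDEV, with 1253 genes called, no filter left 726, 1 fit of all 9 libraries 830, the authors' q-value 617, and leaving out 1 library 501 to 1311, with 5 to 7 of the 8 genes. For SE-BDEV against CON-BDEV, 0 of the 8 were called in any setting, and 1 gene of all was called without CON-BDEV 1 and without SE-BDEV 2, so the range was 0 to 1. The cause of these shifts was not tested.

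The scaling moved the balance of calls over all genes: in CON-BDEV 67.2% of calls were higher in the main analysis, 54.7% after quantile normalization and 59.0% after median scaling, and in SE-BDEV 56.8%, 51.7% and 49.7%. The 8 genes stayed below Vehicle under each. Between the vesicle groups the sign of uncalled differences turned: Acly had a log2 fold change of 0.017 after quantile normalization and 0.0010 after median scaling. Leaving out 1 library gave -0.045 to 0.041 for Acly, -0.17 to 0.068 for Scd2, -0.084 to 0.033 for Acsl3, -0.0021 to 0.18 for Fasn and -0.045 to 0.16 for Elovl6.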
